A study of Mus musculus with 16 samples.

Results

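Skeletal muscle genes were followed through RNA-seq of mouse skin, epidermis and skin tumors, to read how much muscle RNA each library held. The set had 37 genes, listed by symbol for their place in the sarcomere, in calcium release or in muscle metabolism, and all 37 were found among the 24421 genes of the count table. The animals were females of the hairless SKH-1 strain, and the exposed arm received 60 mJ/cm2 of UVB in 2 sessions per week. The 16 libraries formed 8 groups of 2: epidermis of unexposed and of UVB-exposed mice at weeks 2, 15 and 25, whole skin of unexposed mice at week 25, and skin tumors that arose under UVB and were taken at week 25. Replicates are numbered 0 and 1. Nothing in the labels ties a replicate to an animal of its own. The p-values therefore speak of the libraries' own scatter, part or all of which may be technical. The labels name no genotype or transgene and do not say how much underlying tissue a tumor or whole skin sample included. Library totals ran from 2905165 to 7959503 counts after removal of duplicates. Within a library the most abundant gene held 0.114% to 0.224% of the counts.

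A skeletal muscle fibre shortens when thick filaments of myosin pull thin filaments of actin toward the middle of the sarcomere, the unit between 2 Z discs. Calcium released from the sarcoplasmic reticulum binds troponin and opens the thin filament to myosin, and the fibre's speed follows largely from which myosin heavy chain gene it expresses. In mice a thin sheet of skeletal muscle, the panniculus carnosus, lies under the dermis and fat of the trunk skin, and epidermis holds no such fibres. In bulk tissue fewer muscle fibres and less RNA per fibre cannot be told apart, and these genes do not separate panniculus from another skeletal muscle.

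Promoter windows are shown for 4 members that stand for the set: the actin gene and the creatine kinase gene of the fibre, and the myosin genes Myh4 and Myh2, whose log2 differences between tumor and whole skin had opposite signs. Each line is the 250 bases before the RefSeq start (GRCm38.p6), 5′ to 3′ on the strand of the gene. The windows are chr8:123894776-123895025 on the minus strand for Acta1 and, on the plus strand, chr7:19410844-19411093 for Ckm, chr11:67237562-67237811 for Myh4 and chr11:67170777-67171026 for Myh2. Capitals mark every match, on either strand, to the E-box CANNTG bound by myogenic bHLH factors, to the MEF2 motif, to TATAAA, and to the CArG box bound by serum response factor.
Acta1: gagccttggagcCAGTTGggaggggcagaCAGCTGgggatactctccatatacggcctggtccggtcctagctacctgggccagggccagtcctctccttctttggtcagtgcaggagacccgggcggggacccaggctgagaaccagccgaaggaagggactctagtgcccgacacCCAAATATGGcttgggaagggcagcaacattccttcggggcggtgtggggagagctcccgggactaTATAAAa
Ckm: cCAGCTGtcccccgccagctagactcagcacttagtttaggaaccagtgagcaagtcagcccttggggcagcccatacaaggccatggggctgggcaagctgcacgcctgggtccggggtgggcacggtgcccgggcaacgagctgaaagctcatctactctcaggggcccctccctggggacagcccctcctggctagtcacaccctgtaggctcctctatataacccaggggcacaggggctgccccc
Myh4: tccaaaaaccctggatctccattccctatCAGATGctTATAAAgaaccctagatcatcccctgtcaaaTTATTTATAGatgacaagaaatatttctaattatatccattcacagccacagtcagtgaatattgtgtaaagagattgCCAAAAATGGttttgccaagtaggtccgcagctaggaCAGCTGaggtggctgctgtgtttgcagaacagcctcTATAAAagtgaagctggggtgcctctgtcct
Myh2: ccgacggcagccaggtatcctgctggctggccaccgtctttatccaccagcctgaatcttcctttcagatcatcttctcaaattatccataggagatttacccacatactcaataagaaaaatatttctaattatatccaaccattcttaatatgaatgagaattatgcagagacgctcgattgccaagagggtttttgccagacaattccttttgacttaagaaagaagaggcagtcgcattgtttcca
The Acta1 window held 2 E-boxes, 1 CArG box and TATAAA, the Ckm window 1 E-box, and the Myh4 window 2 E-boxes, 1 MEF2 motif, 1 CArG box and 3 TATAAA matches, of which 1 overlapped the MEF2 motif. No match fell in these 250 bases of Myh2. RefSeq windows were found for 29 of the 37 members and for 17216 genes in all. CANNTG was present in 79.3% of the member windows and 62.8% of all windows, and its form CAGCTG in 48.3% and 12.3%. The MEF2 motif was present in 20.7% of member windows and 2.65% of all, the CArG box in 13.8% and 1.32%, and TATAAA in 17.2% and 11.9%. These are matches of letters and say nothing of binding in these samples.

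Whole skin and tumor held large amounts of muscle RNA and epidermis held traces. The 37 genes summed to 8526 CPM (counts scaled to a common library size by trimmed mean of M-values) in whole skin 0, 19351 in whole skin 1, 15278 in tumor 0 and 15925 in tumor 1. As a share of the counts left after removal of duplicates, the 37 genes held 1.04%, 2.24%, 1.78% and 1.79%. In the 12 epidermis libraries the sum ran from 89.6 to 248 CPM with a median of 150, or 0.00908% to 0.0217% of counts. The lowest of the 4 whole skin and tumor libraries was thus 34.3-fold above the highest epidermis library. Each of the 37 genes was higher in all 4 of these libraries than in all 12 epidermis libraries, an order shown by 20.1% of the 15126 genes tested.

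**Figure D1:**
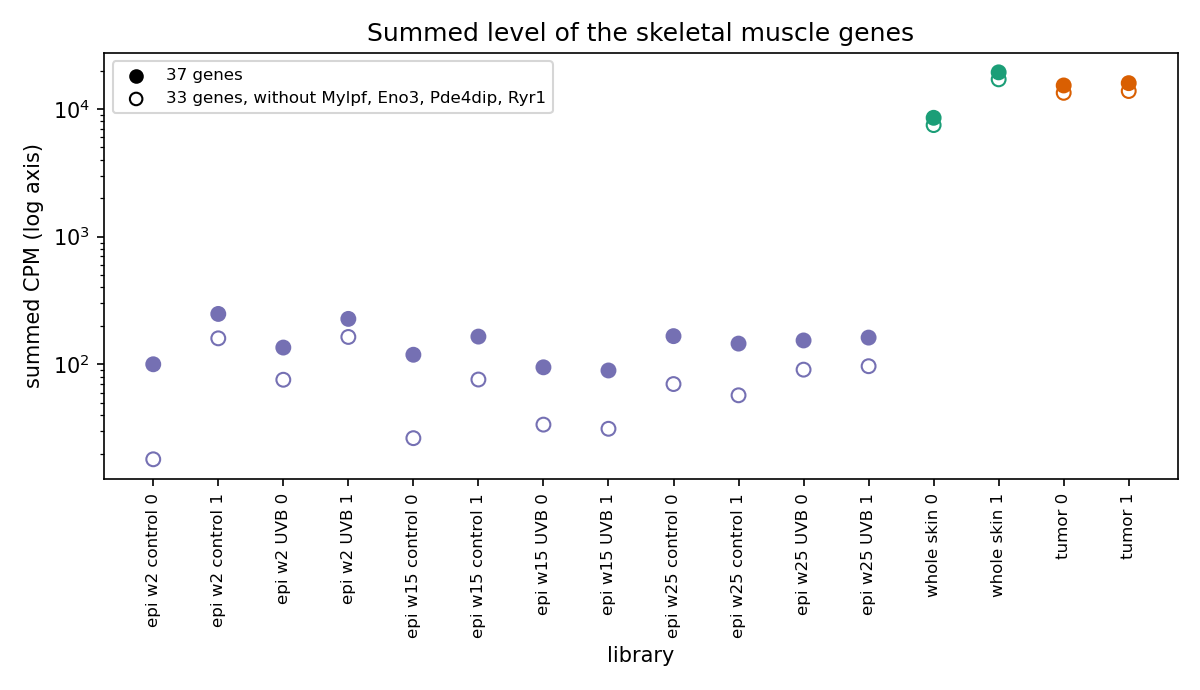
Summed CPM of the muscle genes in each of the 16 libraries, on a log axis; filled circles are all 37 genes and open circles the 33 without Mylpf, Eno3, Pde4dip and Ryr1. The 12 epidermis libraries (purple) lie between 89.6 and 248 for all 37 genes, whole skin (green) at 8526 and 19351, and tumors (orange) at 15278 and 15925.

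Between unexposed whole skin and unexposed epidermis at week 25, all 37 members passed edgeR's quasi-likelihood test as higher in whole skin (Benjamini-Hochberg adjusted p of 7.41e-07 to 0.000169), where 31.9% of all 15126 genes did. The median log2 difference was 8.08 over the members and 0.18 over all genes. Between tumor and UVB-exposed epidermis, again all 37 were called higher (adjusted p of 1.3e-06 to 0.000694, same test), beside 16.8% of all genes. There the median log2 difference was 7.70 over the members and 0.03 over all genes. This pair shared no library with the first, but both were tested in the same fit of all 16 libraries. Only 28 of the 37 had enough counts to be tested among the epidermis libraries alone. The others passed the count filter through whole skin and tumor, where they were high. The genes were also chosen with earlier results of these data known. The 37 calls in each comparison are therefore a description and no independent support. The largest ratios rested on few counts in epidermis. Apobec2, an RNA-editing enzyme family member found mainly in muscle, had 1 count in the control epidermis of week 25 and a whole skin ratio of 1766, with an exact 95% interval of 317 to 69779 that covers counting error alone. Myh2 and Mylk4 had 2 counts each there and ratios of 1502 (415 to 12406) and 1572 (435 to 12986). At the other end stood Mylpf, with a log2 difference of 3.63 ± 0.28 (SE), and Pde4dip at 3.77 ± 0.29, both of which had counts in every epidermis library.

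The pair of whole skin libraries differed from each other more than the tumor mean differed from the whole skin mean. Whole skin 1 stood above whole skin 0 for 37 of 37 members, by a median of 2.22-fold and a range from 1.64-fold for Ttn to 3.97-fold for Actn2. The summed level was 2.27-fold higher in whole skin 1, and its mean over whole skin was 13939 ± 7654 CPM (SD, n = 2). The tumors were close to each other, at 15601 ± 458 CPM (SD, n = 2), which is 1.12-fold the whole skin mean. For 35 members whole skin 0 was the lowest of the 4 libraries and for 27 whole skin 1 was the highest. Both tumors lay between the whole skin libraries for 25 members. The shares of all genes with these orders were not computed, so the counts describe the members only. Genes outside the muscle lists with many counts for their length were also higher in whole skin 1. Their median log2 was 0.59 to 0.74 at 0.5 counts per exon base or more, and -0.02 under that.

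Markers of other cell types of the deep skin were also higher in whole skin 1 than in whole skin 0. The sum over 8 adipocyte markers was 605 CPM in whole skin 0 and 1368 in whole skin 1. Over 8 fibroblast markers it was 640 and 1279, and over 7 endothelial markers 88.1 and 188. Every gene of these 3 lists was higher in whole skin 1, as were 4 of 6 keratinocyte markers. The share of all genes with this order was not computed, so these counts describe the markers only. In the tumors the adipocyte sum was 642 and 738, the fibroblast sum 1288 and 1743, and the endothelial sum 207 and 329. The 6 keratinocyte markers summed to 2686 and 3060 in whole skin, 3252 and 3272 in tumors and 4217 to 5064 in epidermis. The most abundant of each list in whole skin were Car3 and Cfd, Col3a1 and Col1a2, Pecam1 and Vwf, and Dsp and Krt5, and Car3 is also a muscle gene. No marker in these 4 lists was at 0 in any whole skin or tumor library, and their part in the muscle values was not tested.

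In tumor against whole skin, none of the 37 members was called by edgeR's quasi-likelihood test, nor was any of the 14661 genes tested (0% in each direction). At an unadjusted p under 0.05 the test gave 0 members higher and 1 lower, beside 410 genes higher and 402 lower over the whole table. DESeq2 called 11 genes higher and 55 lower and 0 members. The members' fitted log2 differences were positive for 15 and negative for 22, with a median of -0.06 over the members and over all genes. By the group means of CPM, 20 members were higher in tumor and 17 lower, and the fit of all 16 libraries also gave 20 positive and 17 negative, with a median of 0.02 over the members and over all genes. Acta1, Tcap, Des, Atp2a1 and Apobec2 were the members that changed sign between these fits. This comparison turned on which whole skin library was used. Against whole skin 1 alone, leaving out whole skin 0, 2 members were called higher and 25 lower, beside 8.18% and 11.8% of all genes. Against whole skin 0 alone, 31 were called higher and 1 lower, beside 18% and 18.2%. In these fits the lone whole skin library is assumed to vary as the tumors do. With a tumor left out instead, the members' median log2 difference was -0.07 without tumor 0 and -0.04 without tumor 1.

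**Figure D2:**
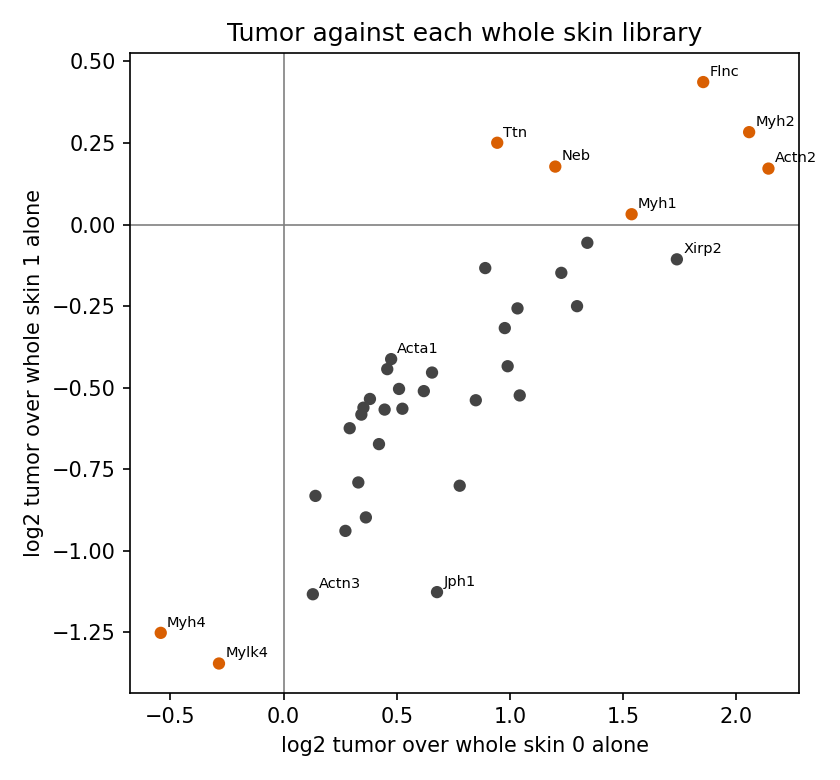
Log2 difference of the tumors from whole skin 0 alone (horizontal) and from whole skin 1 alone (vertical) for each of the 37 genes; orange points have the same sign against both. Most points lie right of 0 and below 0, and 6 genes are above whole skin and 2 below whichever library is used.

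8 members kept their sign against each whole skin library alone. Actn2, Flnc, Myh1, Myh2, Neb and Ttn were higher in tumor and Myh4 and Mylk4 lower. The same 6 had both tumors above both whole skin libraries (16.2% of members, 22.5% of all genes), and Myh4 had both below (2.70%, 12.2% of all genes), so these shares of the members were under the background. The share of all genes that kept their sign in this way was not computed, so the 8 are a description. Sizes against each library alone are given for 3 of them. Flnc had log2 differences of 1.85 against whole skin 0 and 0.44 against whole skin 1, Myh2 of 2.06 and 0.28, and Myh4 of -0.54 and -1.25. The 6 higher members were long, with 2984 to 104320 annotated exon bases and a median of 7624.5, against a median of 3440 over all 37.

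Per-library levels follow by role, as CPM in the order whole skin 0, whole skin 1, tumor 0 and tumor 1. Fitted log2 differences of tumor from whole skin are given with an SE. Here and elsewhere the SE is the absolute log2 difference divided by the square root of edgeR's F statistic. In the thin filament, Acta1 (chr8:123891758-123894775, mm10), the skeletal muscle actin, was at 259, 486, 388 and 376 CPM. Nebulin, from Neb (chr2:52136647-52338798), which runs along the actin filament, was at 346, 711, 796 and 886 CPM. The tumors exceeded both whole skin libraries for Neb and lay between them for Acta1. The 3 fast troponin genes were the highest members of this role per length, at 251 to 286 CPM per kilobase in the whole skin mean. Fast troponin I, Tnni2, which holds the filament off, was at 131, 251, 173 and 167 CPM. Fast troponin C, Tnnc2, which binds calcium, was at 119.7, 229, 168 and 162 CPM, and fast troponin T, Tnnt3, which ties the complex to tropomyosin, at 194, 370.0, 268 and 256 CPM. For all 3 troponins whole skin 1 was highest, whole skin 0 lowest, and the tumors sat near the middle. The log2 differences were -0.04 ± 0.33 for Acta1, 0.60 ± 0.37 for Neb and -0.24 ± 0.33 for Tnni2, each within 2 SE of 0.

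In the thick filament the fast myosin heavy chains did not keep step. Myh4, the type IIb and fastest chain, was at 811, 1343, 672 and 503 CPM, so that both tumors were below both whole skin libraries. Myh1, the type IIx chain, was at 325, 935, 983 and 1015 CPM and Myh2, the type IIa chain, at 127, 439.9, 522 and 597 CPM. For both of these, tumor exceeded whole skin in every pairing of libraries, although Myh1 exceeded whole skin 1 by little. The log2 difference was -0.95 ± 0.34 for Myh4 (unadjusted p = 0.0348, adjusted p = 0.891), 0.59 ± 0.49 for Myh1 (adjusted p = 0.948) and 0.91 ± 0.56 for Myh2 (adjusted p = 0.920), from edgeR's quasi-likelihood test. These 3 genes lie next to each other on chromosome 11, Myh2 at chr11:67171027-67197517, Myh1 at chr11:67200114-67224575 and Myh4 at chr11:67237812-67260447, and are near copies. Of the 50-base windows in their transcripts, 26.7% for Myh1, 26.9% for Myh2 and 18.9% for Myh4 occur in another myosin heavy chain transcript. How such reads were assigned is not given in the sources used here, so these levels are uncertain.

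As shares of CPM per kilobase over Myh1, Myh2, Myh4 and the slow chain Myh7, Myh4 made up 63.7% in whole skin 0, 49.2% in whole skin 1, 30.7% in tumor 0 and 23.5% in tumor 1. Myh1 made up 25.6%, 34.4%, 45.0% and 47.4% and Myh2 9.89%, 16%, 23.7% and 27.6%. Myh7 stayed between 0.417% and 1.51%. The Myh4 share was higher in both whole skin libraries than in both tumors and the Myh1 and Myh2 shares were lower, an order that the summed muscle level did not have. The ratio of Myh2 to Myh4 was 0.156, 0.327, 0.777 and 1.19. The Z disc pair Actn3 and Actn2, of which Actn3 belongs to fast fibres, had an Actn3 to Actn2 ratio of 3.48, 2.13, 0.859 and 0.863, also higher in both whole skin libraries than in both tumors. With 2 libraries a group, no exact permutation test could pass 0.05, and the shares are given as a description.

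**Figure D3:**
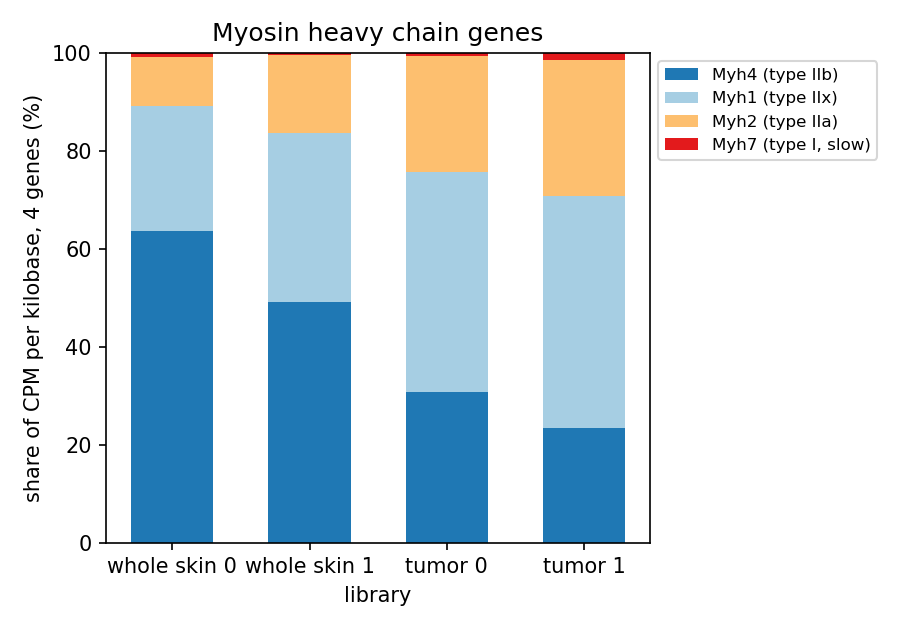
Share (%) of CPM per kilobase held by each of 4 myosin heavy chain genes in the whole skin and tumor libraries, stacked to 100%. The Myh4 part (dark blue) is 63.7% and 49.2% in whole skin and 30.7% and 23.5% in tumors.

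Light chains, binding proteins and titin made up the rest of the thick filament role. The regulatory light chain Mylpf was at 119.7, 231, 164 and 157 CPM and the alkali light chain Myl1 at 100.4, 217, 145 and 139.5 CPM. Both were lowest in whole skin 0 and highest in whole skin 1. Mybpc1 and Mybpc2, the slow and fast myosin binding proteins C, differed: Mybpc1 was at 236, 629, 635 and 629 CPM and Mybpc2 at 384, 846, 527 and 494 CPM. The tumors reached the upper whole skin library for Mybpc1, and stayed well under it for Mybpc2. The M-band proteins myomesin 1 (Myom1) and 2 (Myom2), which link neighbouring thick filaments, were at 193, 480.2, 394 and 411 and at 197, 489, 416 and 438 CPM. Titin, from Ttn (chr2:76703984-76982547), the spring from Z disc to M band, was at 516, 845, 929.8 and 1176 CPM. Both tumors exceeded both whole skin libraries for Ttn, with a log2 difference of 0.55 ± 0.32 (adjusted p = 0.911 by edgeR's quasi-likelihood test).

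At the Z disc and in the cytoskeleton, Actn2, the alpha-actinin of all fibres, was at 91.2, 362, 415 and 437 CPM, the largest fold between whole skin libraries of any member. Actn3, the alpha-actinin of fast fibres, was at 317, 770.5, 357 and 377 CPM, where both tumors lay nearer to whole skin 0. Flnc, the muscle filamin, was at 87.6, 237, 299 and 372 CPM and had the largest positive log2 difference, 0.98 ± 0.47 (adjusted p = 0.911 by edgeR's quasi-likelihood test). Both tumors were above both whole skin libraries for Actn2 and Flnc and between them for Actn3. The calcineurin-binding Z disc protein Myoz1 was at 147, 358, 202 and 199 CPM and the titin cap Tcap at 109, 242, 171 and 184 CPM. Ldb3 and Pdlim3, PDZ-LIM proteins that bind alpha-actinin, were at 167, 502, 360.1 and 369.7 and at 81.2, 221, 166 and 176 CPM. These 4 all had whole skin 0 lowest and whole skin 1 highest. Desmin, the intermediate filament gene Des, was at 225, 491, 376 and 373 CPM, and the actin-binding Xirp2 at 208, 758, 759.8 and 709 CPM. The desmin-binding Cmya5 was at 259, 767, 667 and 681 CPM. Pde4dip, which makes myomegalin and is expressed outside muscle as well, was at 425, 877, 772 and 899 CPM. In Xirp2, Cmya5 and Pde4dip the tumors lay close to whole skin 1 and far above whole skin 0.

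In calcium handling, 5 of the 6 members had a negative fitted log2 difference, though none passed the test, and for Atp2a1 the sign was positive by the group means and in the fit of all 16 libraries. Ryr1 (chr7:29003340-29125151), the calcium release channel of the sarcoplasmic reticulum, was at 269.8, 709, 617 and 721 CPM. Cacna1s, the voltage sensor that opens it, was at 153, 462, 258 and 297 CPM, and Jph1, the junctophilin that holds the membranes of the triad together, at 55.8, 198, 91.0 and 98.0 CPM. Ryr1 in tumors stood near whole skin 1, whereas Cacna1s and Jph1 stood nearer to whole skin 0. The store protein Casq1 was at 192, 452, 244 and 248 CPM. The calcium pump Atp2a1 of fast fibres was at 571, 1081, 827 and 833 CPM and Pvalb, the calcium buffer parvalbumin, at 148, 294, 174 and 170.4 CPM. Whole skin 1 was the highest library for these 3 and whole skin 0 the lowest. The log2 differences in this role ran from -0.49 ± 0.56 for Jph1 to 0.38 ± 0.46 for Ryr1, with a median of -0.33.

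In metabolism and other functions none of the 5 members was called. The fitted log2 difference was negative for Ckm, Pygm, Eno3 and Mylk4 and near 0 for Apobec2, at -0.01 ± 0.45, where the group means gave 0.06. Ckm, the muscle creatine kinase, was at 126, 259, 194 and 187 CPM, and Pygm, the muscle glycogen phosphorylase, at 331, 714, 503 and 506 CPM. Eno3 (chr11:70657176-70662513), the muscle enolase of glycolysis, was at 234, 479, 345 and 330.3 CPM. In each the tumors lay between the whole skin libraries. Apobec2 was at 88.5, 235, 168 and 169.7 CPM. Mylk4, a kinase of the myosin light chain kinase family, was at 179.6, 379.6, 131 and 182 CPM and had the most negative log2 difference of this role, -0.92 ± 0.39 (adjusted p = 0.892 by edgeR's quasi-likelihood test). For Mylk4 one tumor was below whole skin 0 and the other just above it.

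**Figure D4:**
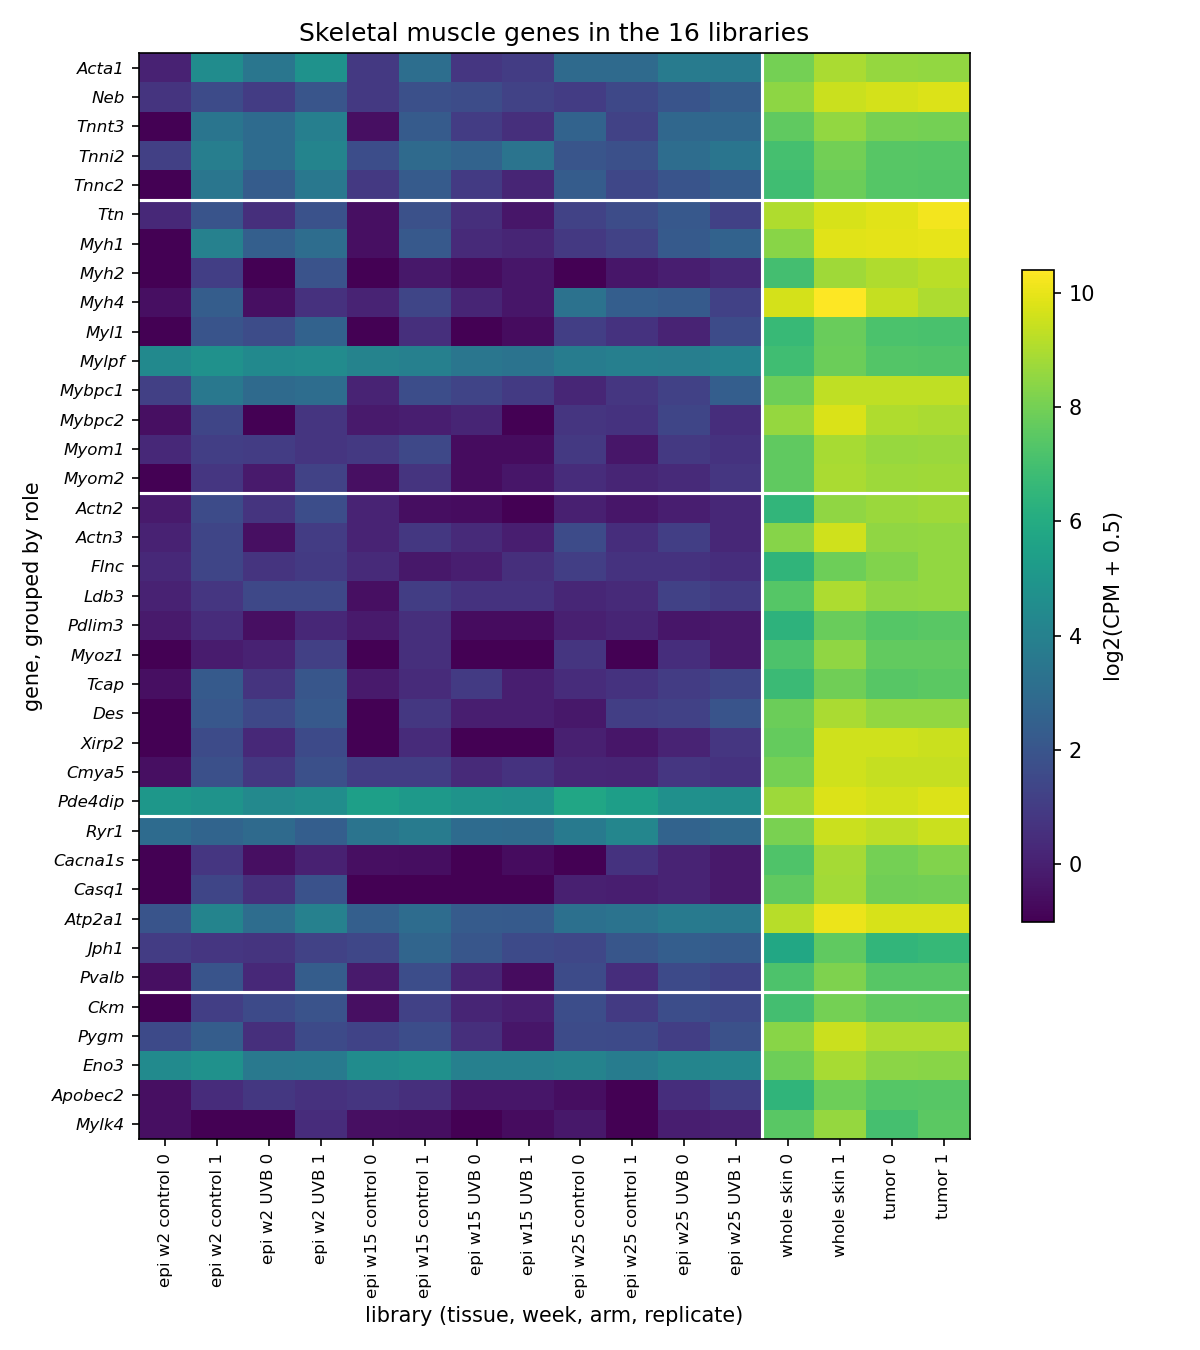
Log2(CPM + 0.5) of the 37 muscle genes (rows, grouped by role with white lines) in the 16 libraries (columns). The 4 right-hand columns, whole skin and tumor, are high in every row, and among epidermis columns Mylpf, Pde4dip, Ryr1 and Eno3 stand out as rows that never come near 0.

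Per length, the whole skin means ran from 6.53 CPM per kilobase for Ttn to 286 for Tnni2. Many members were near the highest density of counts that any gene reached. With duplicates removed, the highest value of any gene was 1.83 to 2.11 counts per exon base in each of the 16 libraries, and the 2.11 was Tnni2 in whole skin 1. 8 members averaged 1.5 counts per base or more over the 4 whole skin and tumor libraries: Acta1, Tnnt3, Tnni2, Tnnc2, Mylpf, Atp2a1, Pvalb and Eno3. Their values in the 4 libraries lay between 1.34 and 2.11 counts per base, although library totals ran from 4854612 to 7959503. In these 8 the fold of whole skin 1 over whole skin 0 had a median of 1.91 and a range of only 1.87 to 2.05. In the 13 members under 0.5 counts per base the median was 2.71 and the range 1.64 to 3.64. As log2, these medians were 0.94 in the 8 members and 1.44 in the 13. Genes outside the muscle lists had median log2 values of 0.61 at 1.5 counts per base or more and -0.02 under 0.5. At 1 to 1.5 and at 0.5 to 1 their medians were 0.74 and 0.59, beside 1.19 and 1.36 in members. Where duplicates have been removed, counts of the densest genes can stay level while library size changes. Acta1 had 2516 counts in whole skin 0 and 2728 in whole skin 1. CPM folds of the densest genes can therefore understate or overstate differences in RNA, and by how much was not tested.

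Density moved with the tumor comparison as well. The median log2 of the tumor mean over the whole skin mean was 0.39 in the 13 members under 0.5 counts per base, 0.12 in the 10 at 0.5 to 1, -0.30 in the 6 at 1 to 1.5, and -0.09 in the 8 at 1.5 or over. For genes outside the set the same classes gave 0.01, 0.08, 0.07 and 0.08. The 13 members under 0.5 counts per base summed to 2987, 7366, 6597 and 7399 CPM, so that by these genes tumor 1 was level with whole skin 1 and the tumor mean was 1.35-fold the whole skin mean. The class limits were chosen after the values were seen.

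**Figure D5:**
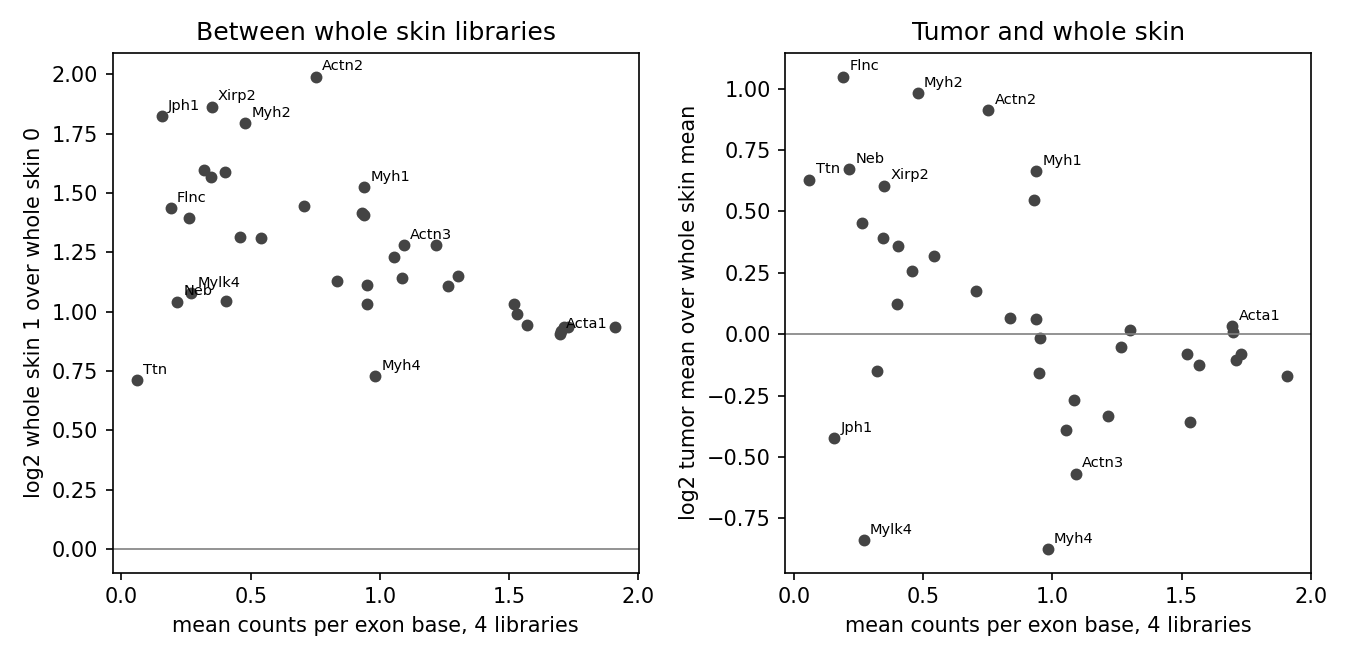
Mean counts per exon base over the 4 whole skin and tumor libraries (horizontal) against the log2 ratio of whole skin 1 to whole skin 0 (left) and of the tumor mean to the whole skin mean (right) for the 37 genes. The points at 1.5 counts per base or more lie within a narrow band in both panels, and the points under 0.5 spread widely.

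In epidermis 4 members had a level in every library, of 4.86 CPM or more. Mylpf (9.61 to 26.6 CPM), Eno3 (11.7 to 27.1), Pde4dip (19.9 to 53.6) and Ryr1 (4.86 to 18.5) never came near 0, and together they held 27.8% to 82.0% of the muscle sum in epidermis against 11.9% to 13.2% in whole skin and tumor. These 4 were picked after their values were seen. The other 33 summed to 18.1 to 164 CPM in epidermis, with a median of 72.9. The highest epidermis libraries for these 33 were week 2 UVB 1 at 164 and week 2 control 1 at 160 CPM, which were the highest of the 12 for 14 and 9 of the 33 genes, and week 2 control 0 was the lowest at 18.1. Replicates of 1 group thus differed nearly as much as any libraries in epidermis. Acta1, which had the most epidermis counts of the 33, was at 0.570 CPM in week 2 control 0 and 22.4 in week 2 control 1.

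Few muscle genes were called for UVB in epidermis, in each week a smaller share than of all genes. Low counts limited these tests. The SE of the log2 difference was 0.20 to 0.21 for Pde4dip but 1.23 to 1.55 for Myh1. A member that was not called was thus not shown to be unchanged. Of the 37 members, 28 had enough counts to be tested among 13478 genes, and the 9 left out were too low in epidermis. At week 2, 1 of 28 was called lower and 0 higher, beside 9.74% and 8.09% of all genes. At week 15, 0 were called in either direction, beside 1.64% lower and 1.85% higher, and at an unadjusted p under 0.05 there were 4 lower and 0 higher, beside 10.1% and 10.3% of all genes. DESeq2 also called 0 members. At week 25, 2 were called lower and 0 higher, beside 10.9% and 10.6%.

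The 3 called genes were all among these 4. Eno3 at week 2 was at 21.7 and 27.1 CPM in control and 11.7 and 12.5 in UVB epidermis, a log2 difference of -1.03 ± 0.24 (adjusted p = 0.0167, edgeR's quasi-likelihood test). The groups did not overlap, nor did they at week 15, where control was at 23.1 and 25.9 and UVB at 15.0 and 14.9 CPM. At week 25 Eno3 was at 16.7 and 13.4 CPM in control and 17.5 and 18.0 in UVB epidermis, so that the UVB libraries were the higher ones. In a test of the UVB effect at week 25 minus that at week 2, 1 of 28 members (Eno3) was called higher and 0 lower, beside 3.33% and 4.59% of all genes. Pde4dip at week 25 was at 53.6 and 41.5 CPM in control and 25.5 and 24.6 in UVB epidermis, a log2 difference of -0.95 ± 0.20 (adjusted p = 0.0108). Ryr1 at week 25 was at 12.5 and 18.5 CPM in control and 5.64 and 6.60 in UVB epidermis, a log2 difference of -1.37 ± 0.32 (adjusted p = 0.0162). Neither pair of groups overlapped. The sum of the other 33 members at week 25 was 70.1 and 57.2 CPM in control and 90.9 and 96.7 in UVB epidermis, opposite in direction to Pde4dip and Ryr1. Leaving out 1 library ended the Eno3 call in 3 of 4 cases, with adjusted p of 0.0713 without week 2 control 1, 0.0920 without UVB 0 and 0.105 without UVB 1. For Pde4dip the call ended without week 25 control 0 (0.0855), UVB 0 (0.0715) or UVB 1 (0.0677), and for Ryr1 without control 1 (0.119), UVB 0 (0.119) or UVB 1 (0.0691).

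Genes of the same pathways outside the 37 were read from lists of other muscle genes, with the 2 most abundant in whole skin named from each and CPM again in the order whole skin 0, whole skin 1, tumor 0 and tumor 1. Of 26 other sarcomere genes, 25 were called higher in whole skin than in control epidermis, beside 31.9% of all genes. So were 15 of 15 other calcium handling genes and 18 of 18 other muscle metabolism genes. Among the epidermis libraries alone, 9, 6 and 13 genes of these lists had enough counts to be tested. The others passed the count filter through whole skin and tumor, so these calls are a description and no independent support. None was called in tumor against whole skin. The tropomyosins Tpm2 and Tpm1, which lie along actin, were at 325, 635, 487 and 471 and at 363, 506, 396 and 365 CPM. The 26 sarcomere genes summed to 403 to 760 CPM in epidermis, above the 89.6 to 248 of the 37 members. Their lowest log2 difference of whole skin from control epidermis was 0.63, so the list is not particular to muscle throughout. Triadin, Trdn, which anchors calsequestrin at the release channel, was at 205, 626, 362 and 368 CPM and sarcalumenin, Srl, a calcium-binding protein of the reticulum, at 187, 576, 357 and 363 CPM. The muscle phosphofructokinase Pfkm was at 266, 598, 443 and 443 CPM, and myoglobin, Mb, which stores oxygen, at 113, 283, 229 and 226 CPM. Every gene of these 3 lists was higher in whole skin 1 than in whole skin 0, as the members were. The share of all genes with this order was not computed, so this too is a description.

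Of 9 slow fibre genes tested, 7 were called higher in whole skin than in epidermis and 1 lower, beside 31.9% and 23.7% of all genes. The lower one was Atp2a2, the calcium pump of slow muscle that many other cells use, at 295, 235, 306 and 331 CPM and 431 to 677 in epidermis. Tpm3 was at 57.5, 60.3, 71.6 and 87.4 CPM and 56.3 to 76.4 in epidermis, and was not called. Of 7 tested genes of developing fibres and satellite cells, all were called higher, beside 31.9% of all genes. The most abundant were the myogenic factor Myf6 at 12.9, 59.9, 30.8 and 22.3 CPM and the cadherin Cdh15 at 3.30, 22.1, 11.8 and 7.995 CPM. Pax7, which marks satellite cells, was at 0, 0, 0.288 and 0.414 CPM. Of 8 neuromuscular junction genes tested, 7 were called higher and 1 lower, beside the same 31.9% and 23.7%. The lower one was Lrp4, the agrin receptor, at 187, 72.4, 108 and 95.8 CPM and 114 to 285 in epidermis. The acetylcholine receptor subunit gene Chrnb1 was at 15.9, 29.6, 18.9 and 19.9 CPM. Among the epidermis libraries alone, 4 slow fibre genes, 1 developing and satellite gene and 2 junction genes had enough counts to be tested. The others passed the count filter through whole skin and tumor, so the calls in these lists are a description and no independent support.

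Markers of other muscle types were read beside these. The 8 cardiac markers summed to 26.2, 21.8, 36.4 and 37.6 CPM, within the 15.2 to 50.8 CPM of epidermis, with Tnnt2 at 17.7, 11.4, 20.2 and 20.1 and Tnni3 at 1.65, 4.46, 6.91 and 6.62 CPM. Myl7 was at 0 in whole skin 0 and Nppa in whole skin 1. The cardiac myosin Myh6 was at 2.37, 1.25, 3.74 and 6.62 CPM and at 0 in all 12 epidermis libraries. The 10 smooth muscle markers summed to 373, 597, 494 and 540 CPM against 73.2 to 159 in epidermis. Smoothelin, Smtn, was at 118, 81.1, 95.6 and 101 CPM and smooth muscle actin, Acta2, at 70.7, 103, 98.5 and 74.6 CPM.

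The genes outside the set whose profile over the 16 libraries was nearest to the members' mean profile were found by root mean square distance of log2(CPM + 0.5), each gene centred on its own mean. The 10 nearest of 12763 candidates were Ckmt2, Trim54, Klhl41, Csrp3, Hspb7, Adssl1, Ppp1r3c, Synpo2, Sypl2 and Lmod3, at distances of 0.38 to 0.45. The members' own distances ran from 0.29 to 1.72 with a median of 0.67, within which 60 candidates fell, and the median of all candidates was 3.14. Mitochondrial creatine kinase, Ckmt2, the nearest, was at 66.7, 234, 160 and 184 CPM in whole skin and tumor and at no more than 0.892 in epidermis. The distance is dominated by the step from epidermis to the 4 other libraries, which these genes share.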

How the data were processed

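RNA-seq libraries were made from epidermis, whole skin and skin tumors. The authors deposited 1 table of raw counts per gene; per the file headers they were counted by gene from alignments with duplicates removed, and the submitters' processing notes name HISAT2, Picard, featureCounts, DESeq2 and the build mm10. No source used here gives the strand setting, the handling of multi-mapping reads or the release of the gene annotation. Without a known strand setting, reads of Neb, Des, Cmya5, Atp2a1 and Ckm cannot be told apart from those of antisense genes over 48 to 2451 shared exon bases, and Pde4dip shares 54 bases with a microRNA gene.

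Every column was mapped to a sample (0 unmapped). Counts were tested with edgeR 4.0.16 in R 4.3.3 (filterByExpr with a minimum count of 10 and a total of 15, TMM scaling, quasi-likelihood F test, prior count 0.125), with Benjamini-Hochberg adjustment over all genes tested and calls at an adjusted p under 0.05. Tumor against whole skin used its 4 libraries (2 residual degrees of freedom), the comparisons with epidermis all 16 libraries (8), and UVB against control the 12 epidermis libraries (6). CPM used TMM sizes of the 16 libraries. DESeq2 1.42.0, its size factors, no filter, TMM without muscle genes, other sets of libraries in the fit, the replicate number as a block and leaving out each library were tried. Fits were tested on simulated data with a fixed spread and no removal of duplicates, which gives no support to any call here. Levels were to be given in full for the 3 members of each role with the highest CPM per kilobase in whole skin and for any member not called in tumor against whole skin; since none was called, all 37 are given. Of each other list the 2 genes with the highest mean whole skin CPM are named, and Pax7, Myh6, Myl7 and Nppa were added after their values were seen. One further marker list is not reported here. The 37 genes and the lists were chosen with earlier results of these data known. Whole skin and tumor compare unlike tissues, and counts per exon base use the gene lengths in the deposited table.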

Additional observations from a re-analysis of the deposited data

Results flagged for a closer look

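The effect of UVB on Eno3 in epidermis passed a test of the difference between weeks 2 and 25, a call that rested on single libraries. The log2 difference of UVB from control was 1.25 higher at week 25 than at week 2 (interaction term, adjusted p = 0.0458, edgeR's quasi-likelihood test over all 13478 genes). The effect was -1.03 at week 2, -0.73 at week 15 and 0.21 at week 25, with UVB lower in both libraries at weeks 2 and 15. Of 28 members tested between week 25 and week 2, Eno3 was the 1 that passed, beside 3.33% of all genes with a higher and 4.59% with a lower effect at week 25. Leaving out 1 library of these weeks in turn, which was added after seeing the data, kept the sign in all 8 fits and the call only without week 2 control 0 (adjusted p = 0.0172, edgeR's quasi-likelihood test). In the other 7 fits the difference was 1.07 to 1.40 and the adjusted p 0.0712 to 0.161.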

How the results depend on the processing

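The 37 calls in whole skin and in tumor against epidermis held under each alternative run (13 of 13 for the members under 0.5 counts per base, a set chosen after seeing the data), and tumor against whole skin gave 0 called members except without whole skin 0 (2 higher, 25 lower) or without whole skin 1 (31 higher, 1 lower), so that leaving out 1 library gave 0 to 31 higher and 0 to 25 lower. Over the whole table, tumor against whole skin called 1224 genes higher and 1764 lower without whole skin 0, 2727 and 2761 without whole skin 1, 0 and 5 without tumor 0, 0 and 6 without tumor 1, 0 and 1 with no filter, and 0 and 7 in a fit of all 16 libraries. Of all genes, week 15 called 250 higher and 221 lower, against 498 and 508 with DESeq2, 577 and 569 with no filter and 128 and 106 in the fit of all 16 libraries, which at week 25 called 692 lower against 1468. Fits of only the 4 libraries compared called 3975 genes higher and 2999 lower in tumor against 2543 and 1926, and 2333 lower in whole skin against 3583. UVB at week 2 gave 0 to 4 members higher and 0 to 1 lower when 1 library was left out, the 4 without control 1, where 392 of 13883 genes were higher, and at week 25 it gave 0 to 1 lower. The counts over all genes moved further. Leaving out 1 library gave 71 to 2308 genes higher and 54 to 2069 lower at week 2 (lowest without UVB 1, highest without control 0), 20 to 698 and 3 to 765 at week 15, and 331 to 625 and 188 to 418 at week 25 against 1430 and 1468. With no filter 1 member was lower at week 15 and 1 higher at week 25, and the fit of all 16 libraries left 1 lower at week 25, where Ryr1 had an adjusted p of 0.0514. The log2 ratio of the summed level in tumor to that in whole skin was 0.16, and 0.12 to 0.43 under the 4 alternatives run for it, none of which left out a library. Its direction rested on the whole skin library, since the tumor mean was 1.83-fold whole skin 0 and 0.806-fold whole skin 1. Members with a log2 near 0 changed sign with the setting. Under the replicate block the log2 of tumor over whole skin was Acta1 0.0219, Tcap 0.0449, Des 0.092, Apobec2 0.145, and in the fit of all 16 libraries Acta1 0.0343, Tcap 0.0183, Des 0.0671, Atp2a1 0.00798, Apobec2 0.0655. With no filter it was Des 0.0186, Apobec2 0.0188, with DESeq2 size factors Des 0.000913, Apobec2 0.00112, and with DESeq2 Des 0.00076, Apobec2 0.000174. The leave-one-out ranges of log2 were Acta1 -0.41 to 0.48, Tnnt3 -0.56 to 0.35, Tnni2 -0.62 to 0.29, Tnnc2 -0.53 to 0.38, Myl1 -0.67 to 0.42 and Mylpf -0.58 to 0.34. They were Mybpc1 -0.056 to 1.34, Mybpc2 -0.79 to 0.33, Myom1 -0.32 to 0.98, Myom2 -0.26 to 1.03, Actn3 -1.13 to 0.13 and Ldb3 -0.52 to 1.04. In the remaining genes they were Pdlim3 -0.43 to 0.99, Myoz1 -0.90 to 0.36, Tcap -0.51 to 0.62, Des -0.45 to 0.66, Xirp2 -0.11 to 1.74 and Cmya5 -0.25 to 1.30. Further ranges were Pde4dip -0.13 to 0.89, Ryr1 -0.15 to 1.23, Cacna1s -0.80 to 0.78, Casq1 -0.94 to 0.27, Atp2a1 -0.44 to 0.46 and Jph1 -1.13 to 0.68. The last were Pvalb -0.83 to 0.14, Ckm -0.50 to 0.51, Pygm -0.56 to 0.52, Eno3 -0.57 to 0.45 and Apobec2 -0.54 to 0.85. The cause of these reversals was not tested beyond the gap between whole skin 0 and whole skin 1.

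With the replicate number as a block, tumor against whole skin called 144 genes higher and 91 lower and 0 members, and no count of members changed in any comparison. Deviations of same-numbered libraries correlated across genes at -0.06 to 0.22. The labels give the libraries a number and no shared animal, litter or day, and these values do not settle whether numbers pair them. With 2 libraries a group, depth limits the low members most, since 9 of 37 had too few counts in epidermis to test.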
